A study of Mus musculus with 8 samples.

Results

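The 10 genes described here make, break down and regulate the polyamines, and were read by symbol from the gene tables of 8 RNA-seq libraries: Odc1, Amd1, Amd2, Srm, Sms, Sat1, Oaz1, Oaz2, Azin1 and Smox. All 10 were found among the 24346 genes listed. The libraries came from mesenchymal cells of the mouse large intestine. The sorting gate took cells that lacked CD45, EpCAM, CD31 and Ly6C, carried gp38, also called podoplanin, and had high PDGFRα. In the genotype set, both untreated groups were homozygous for floxed Cxcl12 (Cxcl12 flox/flox) and gave 1 library each: the control, and a conditional knockout that also carried Foxl1cre, so that deletion is limited to cells with Foxl1 promoter activity. In the time set, cells of C57BL/6 mice gave 3 libraries labelled 0 h and 3 labelled 6 h, all under a label of GABA (1 mM) plus taurine (20 mM), with no 6 h library without treatment, so time and treatment cannot be told apart. The labels do not say how old the mice were, whether animals were pooled, what strain the genotype set had or whether replicates were separate cultures or animals.

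Polyamines are small positively charged molecules that bind nucleic acids and are needed for growth and translation. Ornithine decarboxylase (Odc1) makes putrescine from ornithine, S-adenosylmethionine decarboxylase (Amd1, Amd2) makes the aminopropyl donor, and spermidine synthase (Srm) and spermine synthase (Sms) use that donor to build spermidine and then spermine. Antizymes (Oaz1, Oaz2) bind ornithine decarboxylase and send it to the proteasome, and the antizyme inhibitor Azin1, a relative of the enzyme, competes for them. Spermidine/spermine acetyltransferase (Sat1) marks polyamines for export or breakdown, and spermine oxidase (Smox) turns spermine back into spermidine. Gut tissue is known for both its own polyamine synthesis and uptake from the lumen. Antizyme and ornithine decarboxylase are controlled largely after transcription, which RNA levels do not show.

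Levels are FPKM, that is, fragments scaled to transcript length and sequencing depth, so genes can be compared within a library. The number of reads is unknown and no counting error can be given. The libraries of the genotype set listed 21006 and 20874 genes above 0, and those of the time set 14818 to 14974. Cxcl12, the deleted gene, had 1298 FPKM in the control library and 739.7 FPKM in that of the conditional knockout. Of the gate's markers, Pdgfra and Pdpn were high in all 8 libraries (at least 152.3 and 91.7 FPKM). Ly6c1, of the marker that the gate leaves out, stood at 140.9 and 89.6 FPKM in the genotype set and 8.76 to 12.4 FPKM in the time set. Foxl1 stood at 10.2 and 11.6 FPKM in the genotype set and at no more than 0.289 FPKM in the time set. Summed over 14 leukocyte markers, the genotype libraries held 554.2 and 659.8 FPKM and the time libraries 6.19 to 21.2 FPKM. Summed over 17 epithelial markers, the control held 117 FPKM, the conditional knockout 1091 FPKM and the time libraries 3.18 to 8.43 FPKM, with Fabp2 at 0 in all 6. For 12 endothelial markers the sums were 78.5, 49.6 and 17.8 to 24.4 FPKM, with Cldn5 at 0 in the time set.

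Before the levels, the sequences show which of these genes RNA-seq can separate. Amd1 lies on chromosome 10 from 40287458 to 40302186 (GRCm38, minus strand, 8 exons in the transcript compared) and Amd2 on the same chromosome from 35708675 to 35711892 (minus strand, 1 exon), both annotated as protein-coding in GENCODE M21. Their coding sequences, 1002 bases each, aligned without a gap and differed at 1 position, G796C, counted from the A of the start codon with the base of Amd1 first. Bases 736 to 855 of both are shown because this is the only stretch of coding sequence that tells them apart, with that base in capitals:
Amd1: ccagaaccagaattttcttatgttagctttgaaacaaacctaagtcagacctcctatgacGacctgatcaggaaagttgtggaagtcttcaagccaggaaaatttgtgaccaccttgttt
Amd2: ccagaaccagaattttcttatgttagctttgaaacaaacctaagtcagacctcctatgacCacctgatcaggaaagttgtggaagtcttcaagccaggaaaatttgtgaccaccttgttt
Of the 50-base words in the Amd1 transcript, UTRs included, 86.1% were also in Amd2.

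Oaz1, on chromosome 10 from 80826656 to 80829290 (plus strand), has a processed pseudogene, Oaz1-ps, on chromosome 17 from 17345456 to 17346140 (minus strand), which has its own row in the tables. Over 682 aligned columns the Oaz1 coding sequence and the pseudogene differed at 1 base, G125C (the base of Oaz1 first), and in 1 base that the annotated Oaz1 exons leave out between positions 80828294 and 80828296. Ribosomes make full-length antizyme by a frameshift at this place, a step that polyamines are known to stimulate. The stretch over both differences is shown with the differing bases in capitals, from base 65 of the coding sequence and of the pseudogene transcript:
Oaz1: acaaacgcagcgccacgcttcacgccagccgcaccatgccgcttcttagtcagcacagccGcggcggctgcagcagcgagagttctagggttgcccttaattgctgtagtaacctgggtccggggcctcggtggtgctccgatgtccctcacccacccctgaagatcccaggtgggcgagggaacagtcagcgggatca
Oaz1-ps: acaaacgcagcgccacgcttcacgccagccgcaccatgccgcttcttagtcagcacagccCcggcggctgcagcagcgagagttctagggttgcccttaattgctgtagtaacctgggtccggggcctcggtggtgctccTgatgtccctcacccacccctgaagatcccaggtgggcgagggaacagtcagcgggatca
Of the 50-base words of Oaz1, 53.9% were in the pseudogene, and of those of the pseudogene 92.1% were in Oaz1. Words across the left-out base count as not shared here. The genome holds a base at that place in Oaz1 too, so this difference rests on the annotation, and reads were not examined for it.

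The other members share less with genes that have a row of their own. In GRCm38 with GENCODE M21, all protein-coding, Odc1 lies at chr12:17544794-17551505 and Srm at chr4:148591503-148594993, both on the plus strand, and Sms at chrX:157443855-157492287 and Sat1 at chrX:155213132-155216449, both on the minus strand. Oaz2 lies at chr9:65668001-65690300 (plus), Azin1 at chr15:38487427-38519266 (minus) and Smox at chr2:131491496-131525922 (plus). Smox shared no 50-base word with any other annotated gene, Srm shared 2.4%, Sat1 5.08% and Oaz2 12%, in each case with pseudogenes outside the rows analysed here. Odc1 shared 42.2% of its words with 16 other genes, processed pseudogenes among them, and 14.1% with the 2 of them that have a row. Sms shared 28.7% with 7 others and 3.22% with the only one that has a row, Gm8234. Azin1 shared 6.43%, all with an antisense gene that overlaps it, and the library kit does not mark strand.

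Within both copied pairs the rows stood against each other, and the sum varied less over the time libraries than either row. Amd1 stood at 24.6 and 0.1 FPKM in the control and conditional knockout libraries, at 50.6, 63.2 and 45.6 FPKM at 0 h and at 28.7, 43.7 and 58.9 FPKM at 6 h. Amd2 stood at 8.57 and 30.7 FPKM in the genotype set, at 24.4, 1.79 and 27.1 FPKM at 0 h and at 43.4, 24.3 and 9.91 FPKM at 6 h. In each set the library with the highest Amd1 had the lowest Amd2, and the one with the lowest Amd1 the highest Amd2. Their sum was 33.2 and 30.8 FPKM in the genotype set, 75.1, 64.9 and 72.7 FPKM at 0 h, and 72.1, 68.0 and 68.8 FPKM at 6 h. Over the 6 time libraries the coefficient of variation was 25.3% for Amd1, 66.4% for Amd2 and 5.23% for the sum. The share of the sum listed under Amd1 ran from 39.8% to 97.2% among the time libraries, and was 74.2% in the control against 0.325% in the conditional knockout library. The sources used here do not state how reads that fit both genes were assigned, so only the sum is read as a level below.

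**Figure D1:**
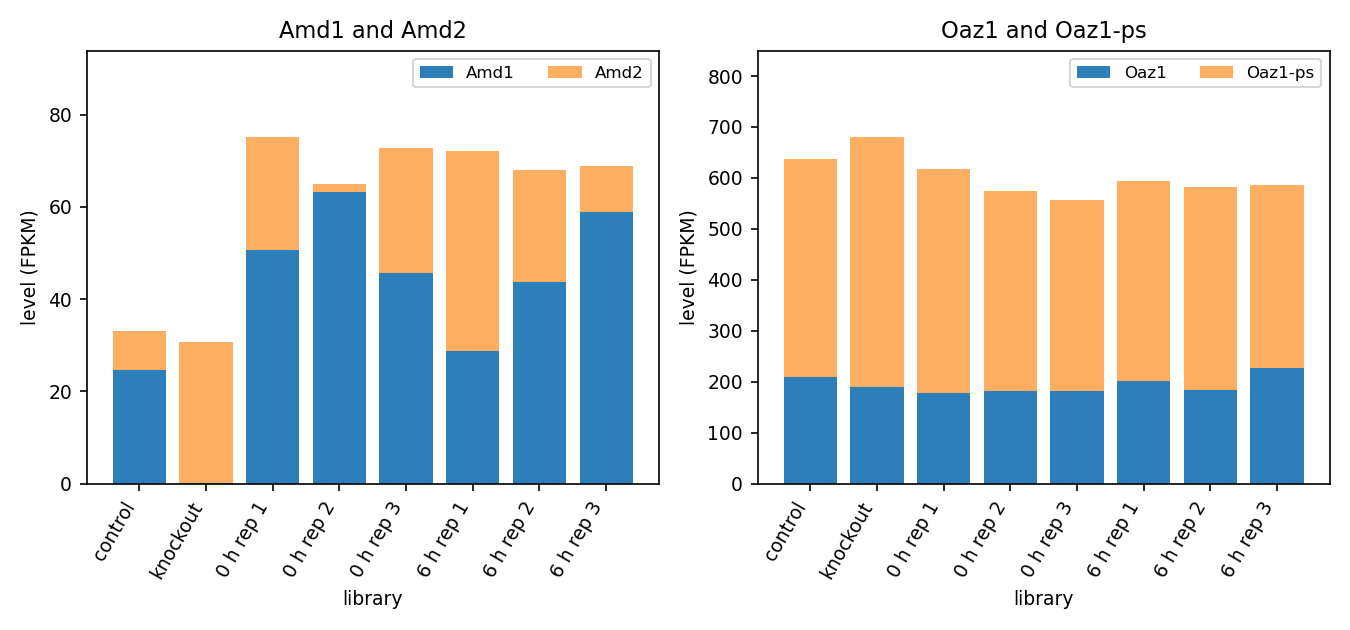
Stacked levels (FPKM) of Amd1 with Amd2 (left) and of Oaz1 with Oaz1-ps (right), 1 bar per library. The split between Amd1 and Amd2 changes from library to library while the bar heights of a set stay alike (64.9 to 75.1 FPKM in the 6 time libraries), and the pseudogene row holds more than Oaz1 in all 8 libraries.

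Oaz1 stood at 209.5 and 190 FPKM in the genotype set, at 177.6, 181 and 181.3 FPKM at 0 h and at 200.6, 183.1 and 227.5 FPKM at 6 h. Oaz1-ps stood at 427.7 and 489.7 FPKM, at 439.3, 393.9 and 375.9 FPKM and at 392.7, 399.4 and 357.8 FPKM in the same libraries. The pseudogene row thus exceeded that of Oaz1 in every library, and 28.0% to 38.9% of the sum was listed under Oaz1. The sum was 637.2 and 679.7 FPKM in the genotype set, 616.8, 574.9 and 557.2 FPKM at 0 h, and 593.3, 582.6 and 585.3 FPKM at 6 h. Its coefficient of variation over the time libraries was 3.39%, against 10.1% for Oaz1 alone. Summing this pair was chosen after its values were seen. The transcripts compared were 1044 bases for Oaz1 and 685 bases for Oaz1-ps, so the sum adds FPKM scaled to unlike lengths.

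All steps of synthesis (with Amd1 and Amd2 summed) were higher in the time set than in the genotype set. Odc1, the first and rate-limiting enzyme, stood at 71.7 and 79.5 FPKM in the control and conditional knockout libraries, at 400.3, 401.6 and 395.9 FPKM at 0 h and at 338.6, 377.8 and 355 FPKM at 6 h. All 6 time libraries lay above both genotype libraries, and the mean was 5-fold higher. Srm, which makes spermidine, stood at 45.5 and 49.2 FPKM in the genotype set, at 561.9, 510.4 and 518.3 FPKM at 0 h and at 518.6, 519.4 and 491.2 FPKM at 6 h. Its mean was 11-fold higher in the time set, the widest gap among the 10 members. The sum of Amd1 and Amd2 was 2.2-fold higher in the time set, again with no overlap. Sms, which makes spermine, stood at 9.83 and 7.69 FPKM in the genotype set, at 18.2, 19.0 and 18.5 FPKM at 0 h and at 19.9, 19.8 and 19.8 FPKM at 6 h, a mean 2.19-fold higher. Gm8234, the pseudogene of Sms with a row of its own, went the other way, at 6.65 and 4.95 FPKM against at most 0.062 FPKM in the time set. Added to Sms it gave 12.6 to 16.5 FPKM in the genotype set and 18.3 to 20.0 FPKM in the time set, still without overlap.

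Regulators and breakdown enzymes did not share a direction between the sets. The antizyme gene Oaz2 was lower in the time set, at 121.4 and 141.3 FPKM in the genotype libraries, 54.1, 50.2 and 52.9 FPKM at 0 h and 57.0, 48.4 and 56.2 FPKM at 6 h, a mean 2.47-fold higher in the genotype set. The sum of Oaz1 and its pseudogene was also higher in the genotype set, by 1.13-fold, with the closest libraries 1.03-fold apart. Azin1, the antizyme inhibitor, stood at 29.4 and 34.3 FPKM in the genotype set, at 56.2, 59.5 and 64.1 FPKM at 0 h and at 59.8, 65.8 and 62.3 FPKM at 6 h, a mean 1.92-fold higher in the time set. Sat1, the acetyltransferase, stood at 346 and 368.9 FPKM in the genotype set, at 136.4, 138.3 and 126.6 FPKM at 0 h and at 144, 139.4 and 169.4 FPKM at 6 h. Its mean was 2.51-fold higher in the genotype set. Smox, the spermine oxidase, lay the other way at 14.6 and 13.5 FPKM against 25.9, 22.2 and 21.5 FPKM at 0 h and 26.6, 26.9 and 26.2 FPKM at 6 h, a mean 1.77-fold higher in the time set.

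**Figure D2:**
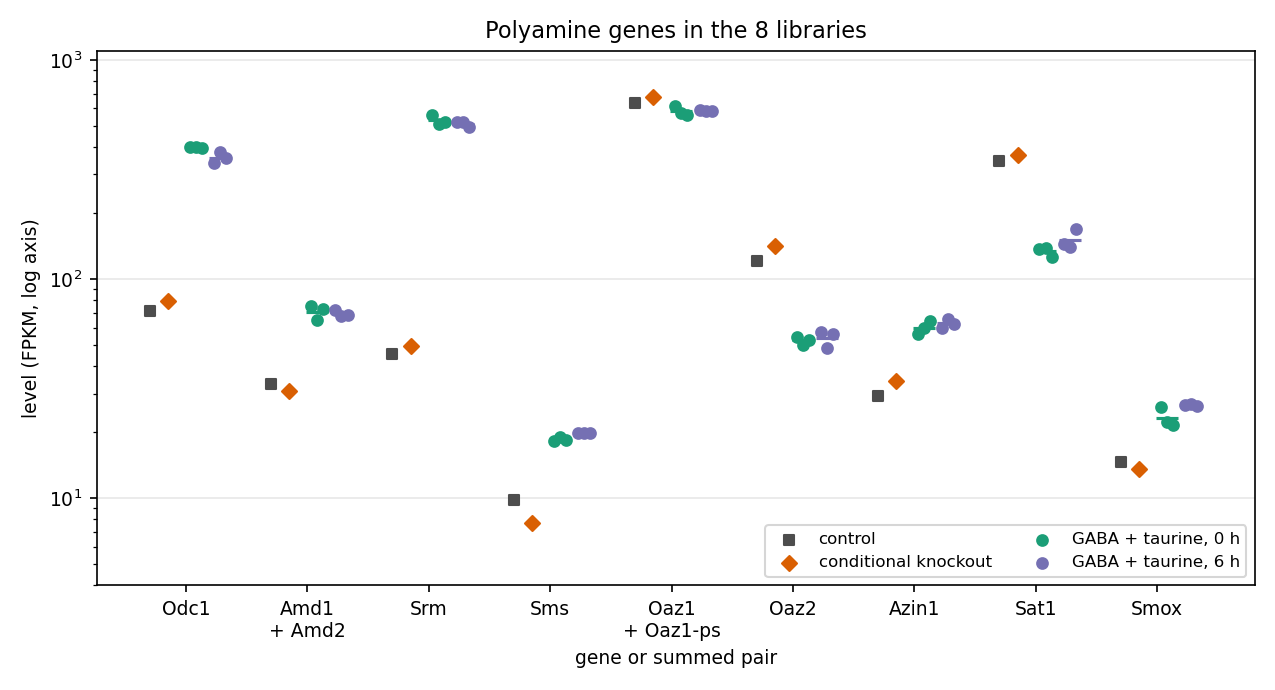
Level of each gene or summed pair (FPKM, log axis) in the 8 libraries, with 1 point per library and a short line at the mean of 3 replicates. Odc1, the sum of Amd1 and Amd2, Srm, Sms, Azin1 and Smox sit higher in the 6 time libraries, and Sat1 and Oaz2 higher in the 2 genotype libraries.

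These differences stand against a wide background and carry no test, because the sets may have been normalised separately and differ in treatment. The strain is labelled for the time set only. Of 13182 genes tested for overlap (average of both set means 1 FPKM or more), 80.8% had no overlap between the sets, 37.5% with all 6 time libraries above and 43.3% with all 6 below. Without overlap were 8 of the 10 members, 6 above and 2 below, so the count itself is near the background. With a difference of at least 2-fold as well (on log2 of FPKM + 1) there were 4 members above and 2 below, against 18.0% and 28.0% of all genes (45.9% together). The 4 above were Srm, Odc1, Sms and the separate row of Amd1. Without the conditional knockout library, an alternative chosen after seeing the data, Sms (log2 difference 0.90) and Amd1 (0.91) were under 2-fold, while the sum of Amd1 and Amd2 stayed above it (1.06). The sizes spread further: the log2 differences were 3.43 for Srm and 2.31 for Odc1, and 0.592% and 3.1% of all genes tested had a higher value, while the median over all genes was -0.10. The sum of Amd1 and Amd2 had 1.11, Sms 1.06, Azin1 0.93, Smox 0.78, Oaz2 -1.29 and Sat1 -1.33. Leukocyte and epithelial markers, given above, were also higher in the genotype set and more genes were listed above 0 there. Mesenchymal markers differed too. Sums over 8 subepithelial genes were 1054 and 1139 FPKM in the genotype set and 478.3 to 625.9 FPKM in the time set. Most of the time-set sum was F3, at 368.7 and 451.3 FPKM in the genotype set and 393 to 523.4 FPKM in the time set. All other genes of that list were lower in the time set. Bmp5 stood at 188.8 and 196 against 1.35 to 2.76 FPKM, and Tgfbi at 191.5 and 193.4 against 4.45 to 9.12 FPKM. For 8 smooth muscle and pericyte genes the sums were 378.6 and 443.2 against 542.4 to 610.5 FPKM. Most of that sum was Acta2, while Myh11 and Rgs5 were higher in the genotype set. The part of all these markers in the differences was not tested. In sorted bulk cells, fewer cells of a type and less RNA per cell cannot be told apart.

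The order of the members within a library does not depend on scaling between libraries. In both genotype libraries the order from the top was Sat1, Oaz1, Oaz2, Odc1 and Srm. In all 6 time libraries it was Srm, Odc1, Oaz1 and Sat1, and in that set the ranges of these neighbours did not overlap. With the FPKM of its pseudogene row added, Oaz1 would stand first in all 8 libraries. That rank depends on the length to which reads are scaled, as the pseudogene transcript is shorter (685 against 1044 bases). Lower down in the time set the ranges of Azin1 and Oaz2 overlapped, as did those of Oaz2 and Amd1, while Smox (21.5 to 26.9 FPKM) lay above Sms (18.2 to 19.9 FPKM). Among all listed genes, Srm moved from percentile 92.4 to 92.5 in the genotype set to 99.3 to 99.4 in the time set, and Sat1 from 99.1 to between 96.5 and 97.5. The ratio of Odc1 to Sat1 within a library, chosen after the values were seen, was 0.207 and 0.216 in the genotype set and 2.1 to 3.13 in the time set. The ratio of Odc1 to Oaz2, chosen in the same way, was 0.591 and 0.563 against 5.94 to 8.0. As Odc1 was higher and Sat1 and Oaz2 lower in the time set, the direction of these ratios was already set. The ratio of Odc1 to Azin1, both higher in the time set, was 2.44 and 2.32 against 5.66 to 7.12.

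From 0 h to 6 h of GABA and taurine, no member passed the test, and apart from the separate rows of Amd1 and Amd2 no log2 difference was larger than the 0.19 of Smox. With limma on log2(FPKM + 1) over 10910 genes, 0 of the 10 members had a Benjamini-Hochberg adjusted p under 0.05, where 0.55% of all genes did (0.238% higher and 0.312% lower at 6 h). An unadjusted p under 0.05 was found for 4 members, against 9.38% of all genes. In 5 of the 10 the 3 values of one time lay beyond the 3 of the other, 4 higher at 6 h (7.25% of all genes) and 1 lower (8.01% of all genes), 15.3% of all genes together. The median log2 difference of the members was 0.08, beside -0.0019 over all genes tested. Marker sums that did not overlap between the times were those of epithelium (3.18 to 4.93 FPKM at 0 h and 5.42 to 8.43 FPKM at 6 h), of 4 genes of the gate (464.8 to 485.6 and 508.5 to 541.9 FPKM) and of 8 subepithelial mesenchymal genes (478.3 to 517.1 and 572.7 to 625.9 FPKM). The gate's genes were Pdgfra and Pdpn with Ly6c1 and Ly6c2, which it leaves out. Most of the subepithelial sum was F3 (393 to 428.9 and 468.9 to 523.4 FPKM). Of the epithelial markers, 12 of 17 stayed under 1 FPKM in all 6 time libraries. Among the rest, Krt8 was higher at 6 h without overlap (0.188 to 0.729 and 1.75 to 2.31 FPKM). So was Krt18 (0.252 to 0.806 and 0.977 to 2.15 FPKM), while Krt19, Lgals4 and Car1 overlapped. The part of these markers in the members' differences was not tested.

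Odc1 was the member with the smallest p. It averaged 399.2 ± 3.0 FPKM at 0 h and 357.1 ± 19.7 FPKM at 6 h (SD, n = 3), which is 0.895 times the 0 h level, and all 3 values at 6 h lay below all 3 at 0 h. The limma log2 difference was -0.16 (SE 0.05, 95% interval -0.27 to -0.05, adjusted p = 0.314), and the exact two-sided permutation test gave 0.1, the smallest p that 3 against 3 libraries allow. Over the alternative fits the adjusted p of Odc1 was at lowest 0.248, and the difference kept its sign. The tested genes whose levels followed Odc1 most closely over the 6 libraries were Pitpna (Pearson r = 0.9995), Prr13 (r = 0.995) and Creld2 (r = 0.994), given as a description over 6 libraries.

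The other steps of synthesis were close at both times. Srm averaged 530.2 ± 27.8 FPKM at 0 h and 509.7 ± 16.0 FPKM at 6 h, with overlapping values and a limma interval from -0.17 to 0.06 on the log2 scale. The sum of Amd1 and Amd2 averaged 70.9 ± 5.28 and 69.6 ± 2.15 FPKM, with a log2 difference of -0.02 (interval -0.17 to 0.12). Taken singly, Amd1 gave -0.32 (interval -0.74 to 0.10) and Amd2 0.87 (interval -0.66 to 2.41), with opposite signs and wider intervals than the sum. Sms averaged 18.6 ± 0.41 and 19.8 ± 0.0619 FPKM without overlap, a log2 difference of 0.09 (interval -0.09 to 0.26).

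Oaz1, Sat1 and Smox had values at 6 h above all those at 0 h, and none passed the test over all genes. Sat1 averaged 133.8 ± 6.26 FPKM at 0 h and 150.9 ± 16.1 FPKM at 6 h (log2 difference 0.17, interval 0.01 to 0.33, limma adjusted p = 0.497). Smox averaged 23.2 ± 2.38 and 26.6 ± 0.342 FPKM (log2 difference 0.19, interval 0.005 to 0.38, limma adjusted p = 0.517). Oaz1 averaged 180 ± 2.08 and 203.8 ± 22.4 FPKM (log2 difference 0.17, interval 0.02 to 0.33, limma adjusted p = 0.458). Without the third 6 h library, the highest for both genes, the log2 difference of Sat1 was 0.084 (limma adjusted p = 0.790) and that of Oaz1 0.091 (limma adjusted p = 0.751). Its pseudogene row had a log2 difference of -0.07, and the sum of both averaged 583 ± 30.6 and 587.1 ± 5.57 FPKM, a log2 difference of 0.01 (interval -0.10 to 0.12). The values of the sum overlapped between the times. Most of the sum lay in the pseudogene row, so it cannot show whether Oaz1 itself differed. Oaz2 (52.4 ± 2.0 and 53.9 ± 4.8 FPKM) and Azin1 (59.9 ± 3.94 and 62.6 ± 3.0 FPKM) overlapped between the times.

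**Figure D3:**
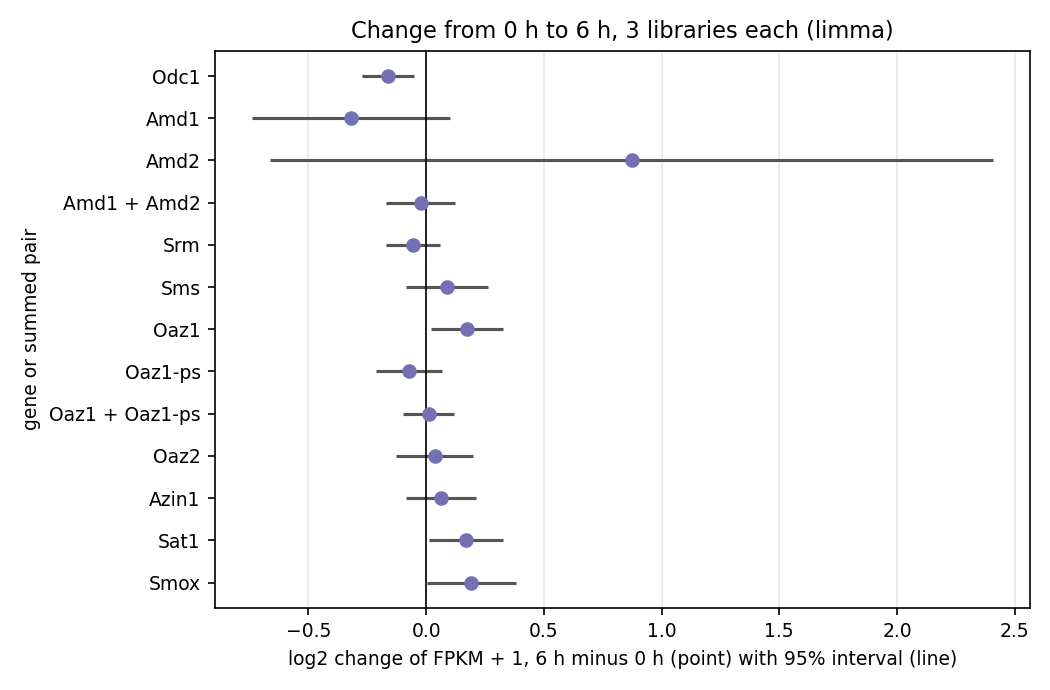
Log2 difference of FPKM + 1 between 6 h and 0 h (points, limma, 3 libraries each) with 95% intervals (lines) for each member and both summed pairs. The intervals of Amd1 and Amd2 are the widest, that of their sum runs from -0.17 to 0.12, and no difference passed the threshold over all genes.

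Between the genotypes, 1 library each and so without a replicate check, only Amd1 and Amd2 of the 10 members were 2-fold apart, against 3.59% of all genes. At least 2-fold lower was Amd1 (log2 difference -4.54, knockout minus control) and at least 2-fold higher Amd2 (1.73), where 2.22% and 1.36% of 14949 genes were that far lower and higher. Their sum stood at 92.8% of the control level in the conditional knockout library, a log2 difference of -0.10, and 71.0% of all genes differed more. Of the 10 members 6 were higher in the conditional knockout library by any amount, against 55.0% of all genes. Odc1 stood at 111% of its control level, Srm at 108%, Sat1 at 107%, Azin1 at 117% and Oaz2 at 116%, while Oaz1 stood at 90.7%, Smox at 92.8% and Sms at 78.3%. The sum of Oaz1 and its pseudogene stood at 107%. All 17 epithelial markers and 12 of 14 leukocyte markers also had higher levels in that library, and their part in these values was not tested.

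Genes around the pathway were read from 7 lists, 42 of whose 43 symbols were in the tables. In the time comparison 0 of the 30 tested passed (limma), against 0.55% of all genes, and 5 had an unadjusted p under 0.05, against 9.38% of all genes. These were Slc3a2, the heavy chain of several amino acid transporters that has been linked to polyamine export (211.7 ± 9.3 FPKM at 0 h and 186.8 ± 10.8 FPKM at 6 h, limma adjusted p = 0.321), Dohh, which completes hypusine on eIF5A (82.0 ± 2.12 and 73.7 ± 3.02 FPKM, limma adjusted p = 0.43), Aldh9a1, Mat2a and Myc. Aldh9a1, an aldehyde dehydrogenase on the route from putrescine to GABA, stood at 7.8 ± 1.09 and 9.89 ± 1.31 FPKM (limma adjusted p = 0.486). Mat2a, which makes S-adenosylmethionine, stood at 324.3 ± 5.75 and 301.4 ± 7.27 FPKM (limma adjusted p = 0.517), and the transcription factor gene Myc at 261 ± 11.9 and 282.8 ± 5.11 FPKM (limma adjusted p = 0.511). Next by p in their lists were Cav1 (adjusted p = 0.573), Eif5a (adjusted p = 0.859), Apip (adjusted p = 0.838) and Max (adjusted p = 0.85), all from limma. In the lists with no gene under 0.05, the smallest p-values were those of Slc7a2 (adjusted p = 0.821) and Slc7a1 for arginine uptake and of Azin2 (adjusted p = 0.955) and Paox for breakdown and antizyme relatives, all from limma. Between the genotypes, 0 of 34 measured list genes were 2-fold apart, against 3.59% of all genes.

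Between the sets, 16 of 32 list genes were higher and 14 lower in the time set without overlap, beside 37.5% and 43.3% of all genes, and the lists ran in different directions. The count of those lower takes in Aoc1, Maob and Slc22a3, which met the filter only through their genotype level. All 4 genes of the hypusine pathway, which consumes spermidine to modify eIF5A, were higher in the time set. Eif5a stood at 354.4 and 375.5 FPKM in the genotype set and at 1810 to 1945 FPKM in the time set, Dhps at 11.5 and 11.6 against 42.6 to 45.5 FPKM, and Dohh at 23.8 and 27.1 against 71.2 to 84.5 FPKM. Of 8 genes of methionine supply and salvage 6 were higher and 1 lower. Mtap, which clears the methylthioadenosine left by spermidine and spermine synthase, stood at 18.2 and 18.2 against 104.8 to 115.2 FPKM. Slc7a1, an arginine transporter, had 2.37 and 2.97 against 11.1 to 13.1 FPKM, and Slc3a2 50.4 and 46.8 against 174.3 to 222.3 FPKM.

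The 3 measured breakdown and antizyme relatives lay on the other side, unlike Smox. Paox, which oxidises acetylated polyamines, stood at 11.7 and 9.03 FPKM in the genotype set and 4.13 to 4.61 FPKM in the time set. Sat2 stood at 7.12 and 8.99 against 0.914 to 3.2 FPKM, and Azin2 at 6.29 and 4.28 against 1.13 to 2.01 FPKM. Both were low in the time set, and Satl1, Oaz3 and Agmat did not meet the filter. All 3 genes of the route from putrescine to GABA were lower in the time set. Aoc1 and Maob met the filter only through their genotype level, so their direction was fixed by it. The diamine oxidase gene Aoc1 stood at 2.58 and 1.63 FPKM and was listed at 0 in all 6 time libraries, Maob stood at 14.3 and 11.5 against 0.24 to 1.01 FPKM, and Aldh9a1 at 20.6 and 21.2 against 6.61 to 11.4 FPKM. Of 7 transport genes measured, 2 were higher in the time set (Atp13a3 and Slc3a2) and 5 lower, among them Cav1 and Gpc1. Slc22a3, also among those lower, met the filter only through its genotype level. Myc stood at 39.8 and 48.7 FPKM in the genotype set and at 252.4 to 286.2 FPKM in the time set, while Mycn was lower there (9.06 and 9.49 against 1.32 to 2.87 FPKM).

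**Figure D4:**
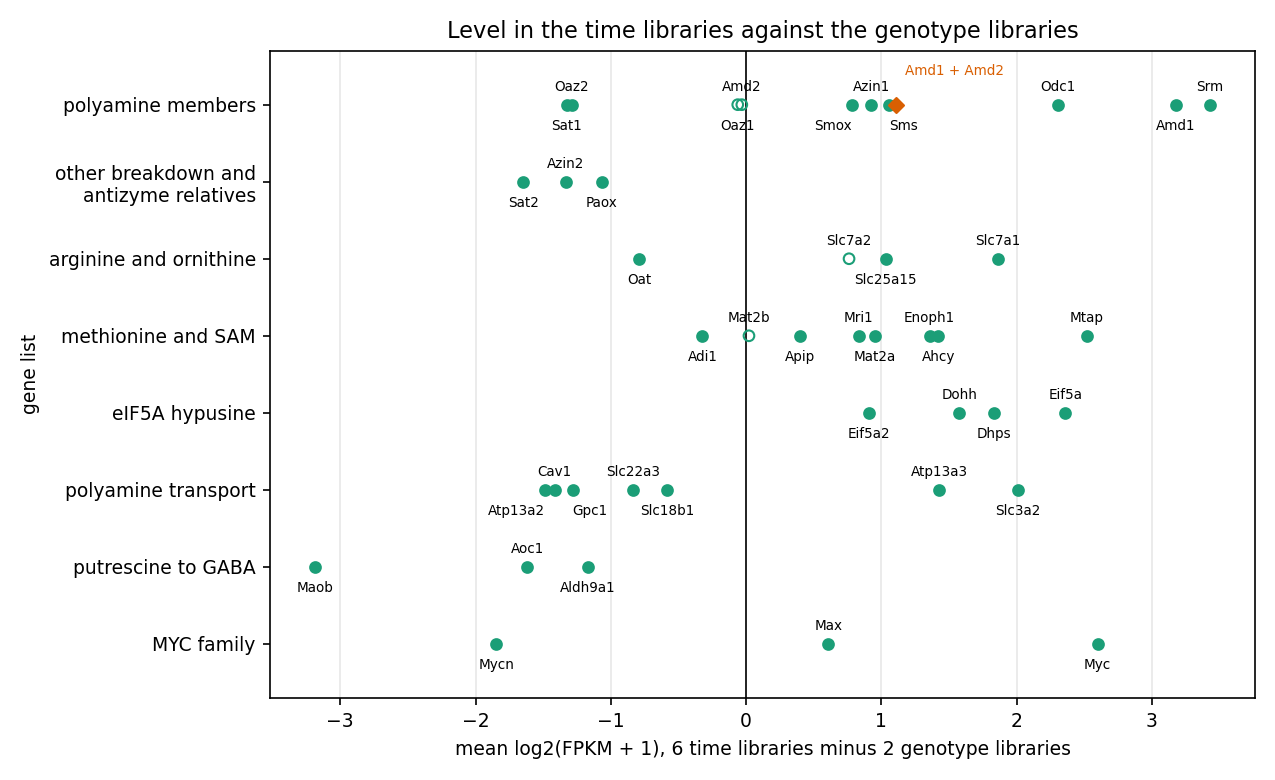
Mean log2(FPKM + 1) of the 6 time libraries minus that of the 2 genotype libraries for each measured gene of the member and pathway lists. Filled points mark genes with no overlap between the sets, open points genes with overlap, and the diamond is the sum of Amd1 and Amd2. Srm, Odc1, Mtap, Eif5a and Myc lie to the right, and Maob, Aoc1, Sat1 and Oaz2 to the left. Maob and Aoc1 met the filter only through their genotype level.

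MYC with its partner MAX binds the letters CACGTG, and this motif was looked for, together with the GC box GGGCGG, in RefSeq promoters (GRCm38.p6, 250 bases before to 50 after a start, both strands), which held 9 entries of 8 members. Srm and Azin1 had no entry and were not searched. Bases further into any gene, introns included, were not searched either. CACGTG was in 1 of the 9, against 7.15% of all 32851 entries, and GGGCGG in 6 of the 9, against 35.7%. The entry with CACGTG was the more upstream of 2 starts of Sms. The entries with GGGCGG were those of Odc1, Amd1, Smox and the other Sms start, and also those of Sat1 and Oaz2. Sat1 and Oaz2 were lower in the time set, so the motif occurred in members of both directions. The bases before that Sms start (chrX:157492288-157492537, minus strand) and upstream of Odc1 (chr12:17544623-17544793, plus strand, ending at the GENCODE start) are shown. They hold the CACGTG match and, for the first enzyme of synthesis, GC boxes. Capitals mark CACGTG or GGGCGG on either strand.
Odc1: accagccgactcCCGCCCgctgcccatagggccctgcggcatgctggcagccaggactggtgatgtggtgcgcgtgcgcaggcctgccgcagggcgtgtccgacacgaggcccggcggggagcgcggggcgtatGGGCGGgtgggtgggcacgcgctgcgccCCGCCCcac
Sms: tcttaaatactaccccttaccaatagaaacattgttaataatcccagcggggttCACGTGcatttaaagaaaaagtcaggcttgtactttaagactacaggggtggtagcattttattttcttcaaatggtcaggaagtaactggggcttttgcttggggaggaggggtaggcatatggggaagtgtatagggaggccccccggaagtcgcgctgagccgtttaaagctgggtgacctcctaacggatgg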

How the data were processed

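RNA was sequenced from sorted mesenchymal cells in 8 libraries. RNA was taken up with a column kit, copied to full-length cDNA with SMART-Seq HT and built into libraries with Nextera XT, per the labels' protocols. The authors deposited 1 table of FPKM per library, per the file headers. Cuffdiff 2.2.1, TopHat2 2.1.1, SAMtools 0.1.18, Bowtie2 2.2.8 and the build mm10 are listed, without roles, per the submitters' processing notes. The sources used here do not give the annotation, how multi-mapping reads were assigned or how libraries were scaled, and each could move the copies and the gap between sets.

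The members and gene lists were chosen with earlier results of these data known. Low values gave relative depths only: 1.25 for the knockout library over the control, and 0.823 to 0.96 for the other time libraries over the first at 0 h. The time groups were compared with limma 3.58.1 (R 4.3.3, intensity trend) on log2(FPKM + 1) for genes averaging 1 FPKM or more, adjusted by Benjamini-Hochberg over all genes at 0.05. Summed pairs entered as extra rows. P-values measure only how these libraries vary, and that variation may be technical. The limma step and the overlap rule were tested on simulated data. Genotypes and library sets were set side by side without a test. Copies were compared on GENCODE M21 transcripts (GRCm38, the build mm10 names) by shared 50-base words and MAFFT 7.526. Named genes are all members and their pseudogene rows, up to 2 genes of each list with the smallest p where none passed, and the 3 genes most like Odc1. Genes beyond these were chosen after their values were seen: Gm8234, and the list genes named between the sets.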

Additional observations from a re-analysis of the deposited data

How the results depend on the processing

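The count of members past the threshold in the time comparison stayed 0 in all 12 alternative fits. Over all genes the count was 60, and it was 0 without the filter, 0 without the intensity trend, 23 with the replicate block, 85 with a filter at 5 FPKM, and 2 to 115 with 1 library left out (115 without the third 0 h library, 6 without the first 0 h, 3 without the second 0 h, 4 without the first 6 h and 2 without the second 6 h). No pairing by replicate number was detected: deviations of same-numbered libraries correlated at -0.04, 0.01 and -0.03, and not every library correlated best with its own number. A weak shared origin could be missed this way. Leaving out 1 library turned the sign of 4 log2 differences, those of Amd2 (range -0.21 to 1.45), Oaz2 (-0.0063 to 0.11), the sum of Amd1 and Amd2 (-0.084 to 0.019) and the sum of Oaz1 and its pseudogene (-0.021 to 0.053), and no other member changed sign. Between genotypes, 536 genes were 2-fold apart, 1150 with a pseudocount of 0.1 and 77 with a filter at 10 FPKM, while the members stayed at 2. The log2 difference of Amd1 between genotypes was -6.95 with a pseudocount of 0.1, as its knockout value lies below 1 FPKM. Between the sets, 10651 genes did not overlap, and 16622 without the filter. Without the control library (chosen after seeing the data) the set difference of Amd1 was 5.45, and without the conditional knockout library 0.91, where that of the sum ran from 1.06 to 1.18 over all alternatives. The differences of Odc1 (2.23 to 2.39), Srm (3.37 to 3.5), Sat1 (-1.41 to -1.26) and Oaz2 (-1.40 to -1.18) kept their direction in all 7 settings. Read depth is not known, so no limit from counting can be set for the low values.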
